A study of Caenorhabditis elegans with 12 samples.

Results

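Nuclear hormone receptor genes of Caenorhabditis elegans were followed by the mRNA levels of whole worms in 6 RNAi groups. They were chosen by name and level: every gene of the deposited table named nhr- followed by a number and with a mean of 1 FPKM or more over the 6 groups, where FPKM is the number of sequenced fragments of a gene corrected for its length and for library size. Of 283 genes with such a name in a table of 46245, 171 met the rule, among 13337 genes of any name that reached the same mean. The groups were worms fed bacteria carrying clones against hda-1 and atp-2, hda-1 alone, dve-1 and atp-2, dve-1 alone, atp-2 with the empty vector L4440, and L4440 alone. All worms were of the strain glp-4(bn2), whose temperature-sensitive mutation limits the germ line, and were collected on day 1 of adulthood after growth at 20 °C from synchronized first-stage larvae, so every group, L4440 included, carried that mutation. In the 3 groups with atp-2 RNAi the atp-2 bacteria were added 30 h after the first clone, per the labels, while the methods of the study give another timing for mRNA sequencing, and its account of this experiment speaks of wild-type animals. Each group had 2 libraries, which the authors combined into 1 value, so no spread between replicates exists, no difference below could be tested, and each comparison describes these pooled libraries.

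Nuclear hormone receptors are transcription factors that pair a zinc-finger DNA-binding domain with a ligand-binding domain. In vertebrates they bind steroids, thyroid hormone, retinoids, fatty acids or bile acids. Nematodes hold a greatly expanded family, most of it descended from relatives of the vertebrate receptor HNF4, and the members with a known role regulate fat metabolism, nutrient supply, detoxification, molting and development, many of them in the intestine. The study asked how hda-1, which encodes a class I histone deacetylase, and dve-1, which encodes a homeodomain protein that acts in the unfolded protein response of mitochondria, act on the response to mitochondrial stress. That stress was imposed by RNAi of atp-2, which encodes the beta subunit of the ATP synthase.

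The RNAi targets were read first. atp-2 was at 554, 423 and 598 FPKM in the groups labelled hda-1, dve-1 and L4440 with atp-2 RNAi, against 861, 1090.1 and 1094 FPKM in the same backgrounds without it. dve-1 was at 14.3 and 11.1 FPKM with dve-1 RNAi, with and without atp-2 RNAi, against 19.6 and 25.4 FPKM in L4440. hda-1 went against its label, at 811 and 1207 FPKM in the groups labelled hda-1 RNAi, with and without atp-2 RNAi, against 21.0 and 18.8 FPKM in L4440, so those groups are named by their label and no knockdown is read from them. The study assessed hda-1 RNAi apart from these libraries. It measured hda-1 mRNA by qRT-PCR in wild-type worms, and a tagged HDA-1 protein by imaging and immunoblot. At the estimated depth, 5 FPKM on 1 kb of exon stands for between 82.0 and 102 fragments per group. Intestinal markers summed to between 5869 and 8239 FPKM over the groups and body wall muscle markers to between 1450 and 1879 FPKM. Such sums can hide markers that move apart. By the calling limits given below, 1 of 6 intestinal markers was lower than L4440 in the group labelled hda-1 with atp-2 RNAi. With dve-1 RNAi without atp-2 RNAi, 1 of 6 was higher. The hypodermal markers, of which 2 of 5 reached a mean of 1 FPKM, summed to 4040.3 and 3894 FPKM in the groups labelled hda-1 RNAi with and without atp-2 RNAi, 3372 and 2415 FPKM with dve-1 RNAi and 3758 and 3996 FPKM in L4440, lowest with dve-1 RNAi alone. Neuronal markers summed to between 345 and 449 FPKM, and germ-line markers to between 107 and 194 FPKM. By the same limits 1 of 5 neuronal markers was higher than L4440 in each dve-1 comparison. Among germ-line markers 1 of 5 was higher in the group labelled hda-1 with atp-2 RNAi. Sperm markers summed to 1.14 and 3.16 FPKM in the groups labelled hda-1 RNAi, with and without atp-2 RNAi, to 191 and 271 FPKM with dve-1 RNAi, and to 78.3 and 63.7 FPKM in L4440, with msp-3 and msp-40 listed at 0 in both groups labelled hda-1. In whole worms fewer cells of a type and less RNA per cell cannot be told apart, and the part of these marker differences in the receptor values was not tested.

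The receptor genes were weakly expressed. Their median level was 5.73 FPKM, against 9.63 FPKM over all 13337 kept genes, and 16 of 171 (9.36%) had a mean of 20 FPKM or more, against 32.1% of all kept genes. Together they made up between 0.149% and 0.169% of the summed FPKM of a group. The highest was nhr-97, with 84.0 and 80.9 FPKM in the groups labelled hda-1 RNAi with and without atp-2 RNAi, 88.4 and 86.7 FPKM with dve-1 RNAi, and 72.6 and 63.7 FPKM in L4440. It was followed by nhr-49 with a mean of 43.1 FPKM, nhr-76 with 37.5 FPKM, nhr-17 with 36.2 FPKM, nhr-57 with 35.96 FPKM, nhr-88 with 31.4 FPKM, nhr-68 with 27.2 FPKM, nhr-105 with 25.9 FPKM, nhr-31 with 25.5 FPKM and nhr-8 with 24.1 FPKM. Without a spread, the order of neighbours in this list cannot be told apart from error. At the lower end nhr-263, nhr-214 and nhr-129 entered with means of 1.005, 1.08 and 1.09 FPKM, while nhr-116, nhr-194 and nhr-150 stayed out with 0.921, 0.891 and 0.873 FPKM. Of the 112 genes below the limit, 20 were listed at 0 in all 6 groups.

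Ratios were taken as log2 of FPKM plus 1, which understates the change of low genes, and a gene was called higher or lower at a ratio of 2-fold or more with at least 5 FPKM in the higher group. Most receptor genes were not called. Of 171, 16 (9.36%) were called in at least 1 of the 7 comparisons, against 22.7% of all kept genes, and 154 were called in neither a comparison nor an interaction. On the same scale of FPKM plus 1, the median range over the 6 groups was 0.63 log2 units for the receptor genes and 0.79 over all kept genes. On that scale 71 receptor genes (41.5%, against 32.7% of all kept genes) stayed within 1.5-fold over all 6 groups. The added 1 narrows the range of weak genes. As the receptor genes were weaker than all kept genes, these figures are not matched for level. Level entered the counts of calls too, as only 101 to 107 receptor genes reached 5 FPKM in a given comparison. Among those, 6.54% were called in the groups labelled hda-1 RNAi against L4440, both with and without atp-2 RNAi, while 17.5% of all kept genes at that level were called with atp-2 RNAi and 17.1% without it.

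**Figure D1:**
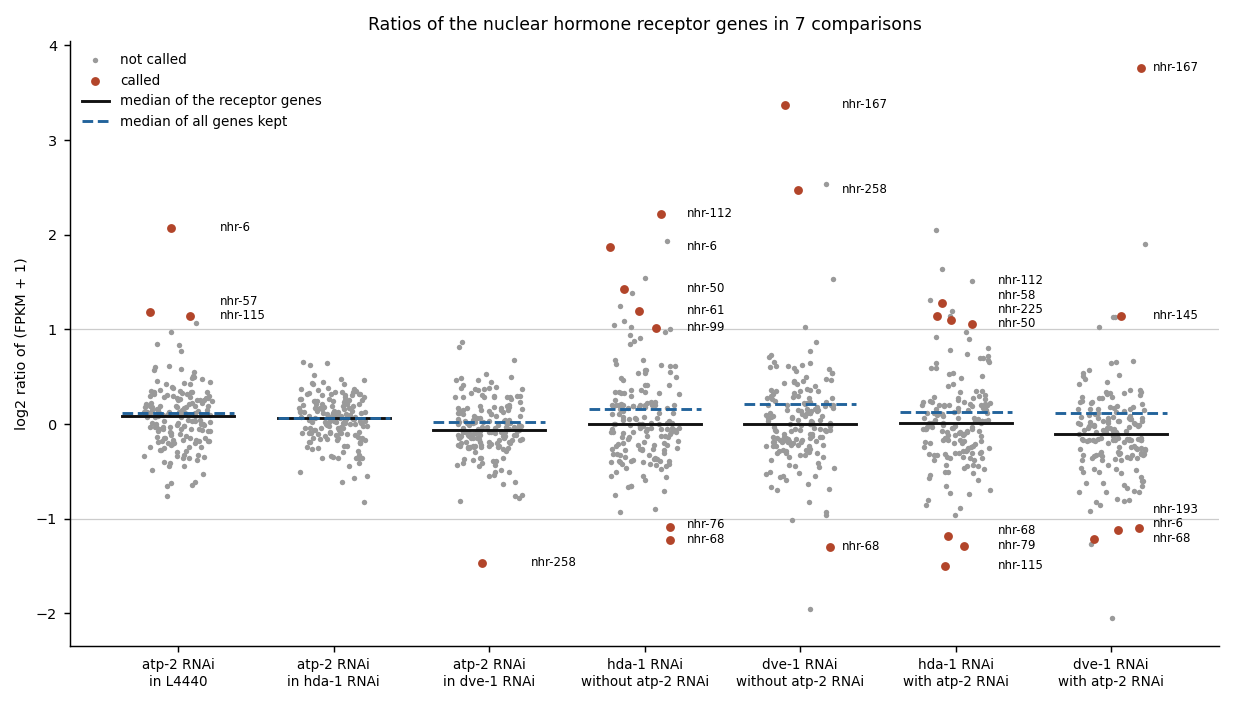
Log2 ratios of (FPKM + 1) of the 171 nuclear hormone receptor genes (points) in the 7 comparisons, with called genes in red and named, and the medians of the receptor genes (solid) and of all 13337 kept genes (dashed). Grey points beyond 1 or -1 had under 5 FPKM in both groups. With hda-1 or dve-1 RNAi the receptor median lies below that of all kept genes, while in each atp-2 comparison both lie within 0.1 of each other.

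Compared with L4440 in the same state of atp-2, the receptor genes lay slightly below the table as a whole. Their median log2 ratio was 0.01 in the groups labelled hda-1 RNAi with atp-2 RNAi and 0.01 without it, against 0.13 and 0.16 over all kept genes. With dve-1 RNAi it was -0.10 with atp-2 RNAi and 0.00 without it, against 0.12 and 0.22 over all kept genes. Relative to the median of all kept genes the receptor genes thus stood at -0.11, -0.16, -0.22 and -0.21 in these 4 comparisons. For atp-2 RNAi itself the same quantity was 0.00 in the groups labelled hda-1, -0.08 in dve-1 and -0.03 in L4440. Both dve-1 groups were below the other 4 for 33 receptor genes (19.3%), against 7.67% of all kept genes, and both L4440 groups were above the other 4 for 26 (15.2%), against 5.86%. Under median-of-ratios scaling these shares were 19.3% against 10.9% and 28.7% against 15.5%.

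The receptor gene called most often against L4440 was nhr-68, a receptor that, with nhr-10, switches on the propionate shunt, the route that breaks down propionate when vitamin B12 is short. nhr-68 (chromosome V, 11573440 to 11575709, plus strand of ce11) was at 21.0 and 16.7 FPKM in the groups labelled hda-1 RNAi, with and without atp-2 RNAi, at 20.6 and 15.7 FPKM with dve-1 RNAi, and at 48.9 and 40.3 FPKM in L4440. All 4 groups with an hda-1 or dve-1 label were thus below both L4440 groups. The log2 ratios to L4440 were -1.18 and -1.22 for hda-1 with and without atp-2 RNAi and -1.21 and -1.30 for dve-1, and nhr-68 was the only receptor gene called in all 4 comparisons. These comparisons share the L4440 values in pairs, so the hda-1 and dve-1 ratios are not independent of each other. The lowest of the 6 values rests on an estimated 368 fragments.

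nhr-10, the partner receptor, was nearly level, at 21.2 and 18.7 FPKM in the groups labelled hda-1 RNAi with and without atp-2 RNAi, 20.6 and 20.7 FPKM with dve-1 RNAi and 18.97 and 21.6 FPKM in L4440. Of the 5 shunt genes, 4 were called lower in the groups labelled hda-1 RNAi with atp-2 RNAi and the same number without it. With dve-1 RNAi, 1 was called lower with atp-2 RNAi and 3 without it, and under median-of-ratios scaling 2 and 4. acdh-1, the acyl-CoA dehydrogenase of the first step, was at 201 and 80.7 FPKM in the groups labelled hda-1 RNAi with and without atp-2 RNAi, 385 and 298 FPKM with dve-1 RNAi and 984 and 1002 FPKM in L4440. It was called lower in all 4 comparisons, and so lay on the same side as nhr-68 in each. The enoyl-CoA hydratase ech-6 was at 236 and 155 FPKM in the groups labelled hda-1 RNAi with and without atp-2 RNAi, 337 and 323 FPKM with dve-1 RNAi and 669 and 709 FPKM in L4440. alh-8, the last enzyme of the route, was not called in any of the 7 comparisons as deposited, and was called lower in the group labelled hda-1 without atp-2 RNAi under median-of-ratios scaling. It was at 938 and 829 FPKM in the groups labelled hda-1 RNAi with and without atp-2 RNAi against 1340 and 1420 FPKM in L4440.

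**Figure D2:**
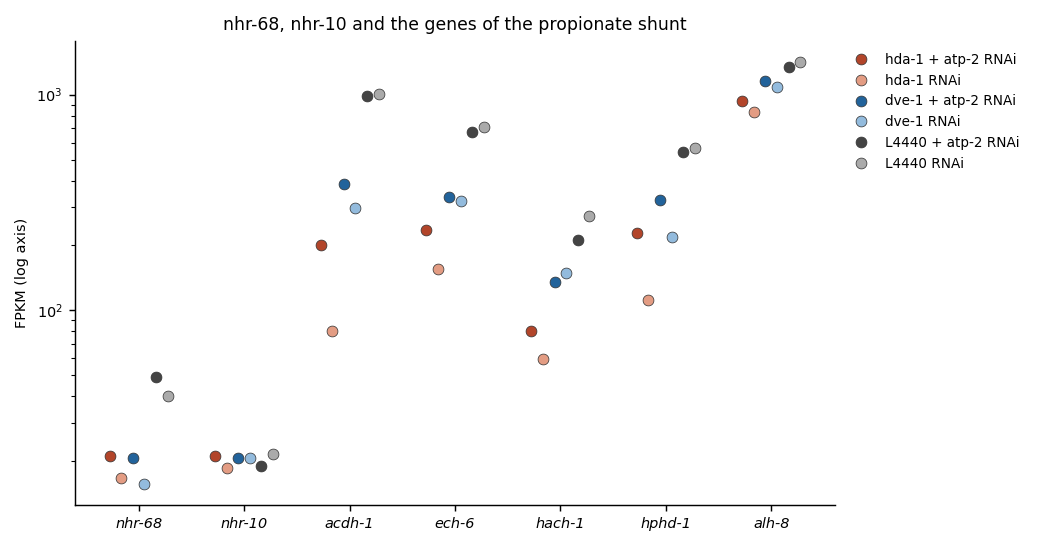
FPKM on a log axis of nhr-68, nhr-10 and the 5 genes of the propionate shunt in the 6 RNAi groups, 1 pooled value per group and named by label. nhr-68 lies between 15.7 and 21.0 FPKM in the 4 groups labelled hda-1 or dve-1 and at 40.3 and 48.9 FPKM in L4440, all 5 shunt genes are likewise lower in those 4 groups than in L4440, and nhr-10 stays near 20.3 FPKM.

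Within the groups labelled hda-1 RNAi, acdh-1 and hphd-1, the hydroxypropionate dehydrogenase of the shunt, were called higher with atp-2 RNAi, with log2 ratios of 1.31 and 1.01. The second was no longer called under either scaling. nhr-68 itself had a log2 ratio with atp-2 RNAi of 0.31 in the groups labelled hda-1, 0.37 in dve-1 and 0.27 in L4440, which is a small shift in one direction in 3 comparisons that share no group, and none of them was called. nhr-114, which supports the methionine cycle when vitamin B12 is low, was at 17.2 and 13.7 FPKM in the groups labelled hda-1 RNAi with and without atp-2 RNAi, 25.9 and 21.0 FPKM with dve-1 RNAi and 29.1 and 22.2 FPKM in L4440, and was not called. Of the 8 methionine cycle genes listed beside it, 2 were called against L4440. folt-2, a folate transporter, was called lower in all 4 comparisons, at 122 and 53.5 FPKM in the groups labelled hda-1 RNAi with and without atp-2 RNAi, 41.6 and 28.7 FPKM with dve-1 RNAi and 441 and 475 FPKM in L4440. sams-1, an S-adenosylmethionine synthase with close paralogs whose reads unique mapping can leave out, was called higher in all 4, at 110 and 62.5 FPKM, 125 and 66.2 FPKM and 44.1 and 24.7 FPKM in the same order of groups.

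Among the 7 receptor genes with a role in fat metabolism, nhr-76, which acts in serotonin-driven fat loss, was the one called. It was at 20.9 and 18.8 FPKM in the groups labelled hda-1 RNAi with and without atp-2 RNAi, 44.7 and 59.97 FPKM with dve-1 RNAi and 39.4 and 41.03 FPKM in L4440. The groups labelled hda-1 were below the other 4, with log2 ratios to L4440 of -0.89 with atp-2 RNAi, short of the limit, and -1.08 without it, where it was called. nhr-49, the HNF4-like regulator of fatty acid oxidation and desaturation, ranged only from 37.3 to 52.2 FPKM. Its partner nhr-80 was at 15.7 and 15.1 FPKM in the groups labelled hda-1 RNAi with and without atp-2 RNAi, 11.02 and 12.3 FPKM with dve-1 RNAi and 18.7 and 22.5 FPKM in L4440. Its log2 ratio was -0.82 with dve-1 RNAi without atp-2 RNAi, not called as deposited and called lower under both scalings. nhr-62, required for the long life of worms under dietary restriction, was at 13.1 and 12.5 FPKM in the groups labelled hda-1 RNAi with and without atp-2 RNAi, 6.29 and 7.84 FPKM with dve-1 RNAi and 7.65 and 5.87 FPKM in L4440, and just missed the limit at 0.97 without atp-2 RNAi. nhr-13, nhr-64 and nhr-66 had means of 3.16, 14.1 and 5.73 FPKM and were not called.

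Of the 6 measured fatty acid genes listed under nhr-49 and its partners, fat-7, a stearoyl-CoA desaturase, was called higher in all 4 comparisons. It was at 224 and 320 FPKM in the groups labelled hda-1 RNAi with and without atp-2 RNAi, 30.2 and 55.2 FPKM with dve-1 RNAi and 6.55 and 6.27 FPKM in L4440. fat-6, a near-identical paralog whose shared reads may be split, was at 645 and 721 FPKM, 1133 and 1211 FPKM and 1136 and 1377 FPKM in the same groups. It was not called as deposited, and in the groups labelled hda-1 it was called lower without atp-2 RNAi under both scalings. fmo-2, a flavin monooxygenase, was called lower in the groups labelled hda-1 RNAi with atp-2 RNAi, at 2.95 FPKM against 14.4 FPKM in L4440. Over the list, the median log2 ratio relative to all kept genes was between -0.48 and -0.36 with atp-2 RNAi in the 3 backgrounds, with no gene called as deposited. mdt-15, the Mediator subunit that partners NHR-49, was at 38.8 and 37.6 FPKM in the groups labelled hda-1 RNAi with and without atp-2 RNAi, 52.8 and 53.5 FPKM with dve-1 RNAi and 44.5 and 43.9 FPKM in L4440, and none of the 3 listed coregulators was called.

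With atp-2 RNAi in L4440, 3 receptor genes were called higher and 0 lower, against 1.89% and 0.652% of all kept genes. Over all kept genes these calls were 252 higher and 87 lower, and 199 and 131 under median-of-ratios scaling, which left the 3 receptor genes called. nhr-57, a target of the hypoxia factor HIF-1 (chromosome V, 4131889 to 4135102, plus strand), was at 37.2 and 41.7 FPKM in the groups labelled hda-1 RNAi with and without atp-2 RNAi, 27.04 and 35.7 FPKM with dve-1 RNAi, and 51.9 and 22.3 FPKM in L4440. The L4440 group with atp-2 RNAi was the highest of the 6 and L4440 alone the lowest, a 2.33-fold difference in FPKM with a log2 ratio of 1.19. In the groups labelled hda-1 and dve-1 the same ratio was -0.16 and -0.39. Set against the ratio in L4440, this was a difference of -1.35 in the groups labelled hda-1 and of -1.57 in dve-1, and it was called in both interactions under every alternative run for it.

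Of the other 3 HIF-1 targets listed, 1 had a higher call for atp-2 RNAi in L4440, 0 were called in the hda-1 by atp-2 interaction and 2 were called lower in the dve-1 by atp-2 interaction. rhy-1, which acts in the same pathway, was at 126 and 86.8 FPKM in the groups labelled hda-1 RNAi with and without atp-2 RNAi, 76.4 and 96.3 FPKM with dve-1 RNAi and 62.4 and 24.4 FPKM in L4440, and like nhr-57 it was among the genes with a higher call for atp-2 RNAi in L4440. Its log2 ratio with atp-2 RNAi was lower in dve-1 than in L4440, a called difference of -1.65. cysl-2, a cysteine synthase-like enzyme, was at 258 and 340 FPKM, 423 and 648 FPKM and 406 and 305 FPKM in the same groups, with a log2 ratio of 0.41 in L4440 and a called difference of -1.03 for dve-1. Like rhy-1 it was called higher with dve-1 RNAi without atp-2 RNAi, at 1.09, against 1.94 for rhy-1, and the dve-1 ratios share the L4440 values with the interaction. rhy-1, unlike cysl-2, was called higher than L4440 in both comparisons labelled hda-1 too, so its rise was not particular to dve-1. phy-2, a collagen prolyl hydroxylase, was not called in any comparison, with a ratio of -0.22 in L4440 and a difference of -0.69 for dve-1.

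nhr-115 was followed up in the study itself by qPCR in wild-type worms. There the study reports that its induction under mitochondrial stress was significantly reduced by RNAi of either hda-1 or dve-1. As nhr-115 was chosen on these libraries, its values here are not independent evidence of its direction. It lies on chromosome V, 2292540 to 2294800, plus strand. It was at 3.29 and 3.09 FPKM in the groups labelled hda-1 RNAi with and without atp-2 RNAi, 5.70 and 4.198 FPKM with dve-1 RNAi and 11.1 and 4.48 FPKM in L4440. L4440 with atp-2 RNAi was the highest group, with log2 ratios for atp-2 RNAi of 0.07 in the groups labelled hda-1, 0.37 in dve-1 and 1.14 in L4440. The difference for hda-1 was called at -1.08, and was -0.99 and not called under upper-quartile scaling, while the difference for dve-1 was -0.78. With atp-2 RNAi the group labelled hda-1 was called lower than L4440, at a log2 ratio of -1.498.

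The remaining 5 receptor genes of the stress and defence list were not called in any comparison. nhr-45, which activates UDP-glucuronosyltransferase genes under mitochondrial dysfunction, was at 20.3 and 18.6 FPKM in the groups labelled hda-1 RNAi with and without atp-2 RNAi, 13.8 and 12.95 FPKM with dve-1 RNAi and 18.1 and 14.7 FPKM in L4440. Its target ugt-61 was at 36.4 and 23.1 FPKM, 40.1 and 15.9 FPKM and 48.9 and 17.4 FPKM in the same groups, and was called higher with atp-2 RNAi in dve-1 and L4440. nhr-86, a sensor of bacterial phenazines that drives immune genes, ranged only from 12.6 to 16.2 FPKM, whereas irg-5, an immune effector downstream of it, was at 1715 and 1865 FPKM in the groups labelled hda-1 RNAi with and without atp-2 RNAi, 3158 and 3373 FPKM with dve-1 RNAi and 315 and 140 FPKM in L4440. nhr-86 and irg-5 thus differed in how far they moved, but irg-5 does not stand for all the effectors listed. Of the 3 listed, 2 were called higher than L4440 in each comparison labelled hda-1, and 1 in each with dve-1 RNAi. nhr-14, which acts in iron uptake, was at 16.4 and 14.2 FPKM in the groups labelled hda-1 RNAi with and without atp-2 RNAi, 8.25 and 13.1 FPKM with dve-1 RNAi and 10.6 and 14.7 FPKM in L4440, and smf-3, the metal transporter it represses, was called lower with dve-1 RNAi without atp-2 RNAi at 1.83 FPKM against 9.56 FPKM. nhr-176, a receptor in thiabendazole detoxification, ranged from 5.59 to 9.81 FPKM, while cyp-35D1, the cytochrome P450 it controls and its neighbour on chromosome V, was at 9.15 and 13.2 FPKM in the groups labelled hda-1 RNAi with and without atp-2 RNAi against 2.18 and 3.48 FPKM in L4440 and was called higher in both.

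Of the 11 receptor genes listed as conserved outside nematodes, 7 passed the limit on the mean, and nhr-6 was the one called. nhr-6 is the worm NR4A receptor and is needed for the spermatheca. It lies on chromosome III, 3573581 to 3578771, plus strand. It was at 8.76 and 6.02 FPKM in the groups labelled hda-1 RNAi with and without atp-2 RNAi, 2.71 and 2.91 FPKM with dve-1 RNAi, and 7.06 and 0.916 FPKM in L4440, the last from an estimated 37.5 fragments. L4440 alone was the lowest group, and atp-2 RNAi in L4440 gave a log2 ratio of 2.07. In the groups labelled hda-1 that ratio was 0.47 and in dve-1 -0.08, so that the differences were -1.60 and -2.15, called in both interactions. Against L4440, nhr-6 was called higher in the group labelled hda-1 without atp-2 RNAi, at 1.87, and lower in dve-1 with atp-2 RNAi, at -1.12.

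nhr-23, the ROR-related receptor that drives molting, was at 3.10 and 2.32 FPKM in the groups labelled hda-1 RNAi with and without atp-2 RNAi, 6.49 and 5.64 FPKM with dve-1 RNAi and 3.71 and 2.88 FPKM in L4440. Both dve-1 groups were above the other 4, with log2 ratios of 0.67 and 0.78 that were not called. nhr-85, related to Rev-Erb, reached 3.58 FPKM at most, and 33.2% of its exon bases overlap another gene, so that with strandedness not stated its reads are uncertain. nhr-8, a relative of daf-12 in sterol metabolism and detoxification, was at 19.6 and 15.3 FPKM in the groups labelled hda-1 RNAi with and without atp-2 RNAi, 25.5 and 20.6 FPKM with dve-1 RNAi and 33.4 and 30.0 FPKM in L4440. It was lower in the 4 groups labelled hda-1 or dve-1 than in both L4440 groups, and at -0.93 without atp-2 RNAi it was not called for hda-1 as deposited but was called lower under both scalings. nhr-41, nhr-48 and nhr-91 had means of 10.5, 10.9 and 4.17 FPKM and were not called. nhr-25, nhr-67, nhr-111 and nhr-239 had means of 0.799, 0.711, 0.123 and 0.222 FPKM and stayed below the limit.

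The 3 kept receptor genes with roles in particular tissues were not called. nhr-31, which builds the excretory canal, was at 29.6 and 25.9 FPKM in the groups labelled hda-1 RNAi with and without atp-2 RNAi, 31.1 and 25.2 FPKM with dve-1 RNAi and 24.4 and 17.0 FPKM in L4440, higher with atp-2 RNAi in all 3 backgrounds by 0.19, 0.29 and 0.50 log2 units and called in none. Excretory canal markers summed to between 508 and 584 FPKM over the groups, but the sum hides a marker that moved. Of the 3 markers, 1 was called lower than L4440 in dve-1 with atp-2 RNAi, the group where nhr-31 was highest. nhr-40, a receptor of muscle development, ranged from 9.32 to 13.99 FPKM, and nhr-69, an HNF4-like receptor of neurons and intestine, from 17.8 to 28.5 FPKM. nhr-2 and nhr-60 had means of 0.0754 and 0.216 FPKM.

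**Figure D3:**
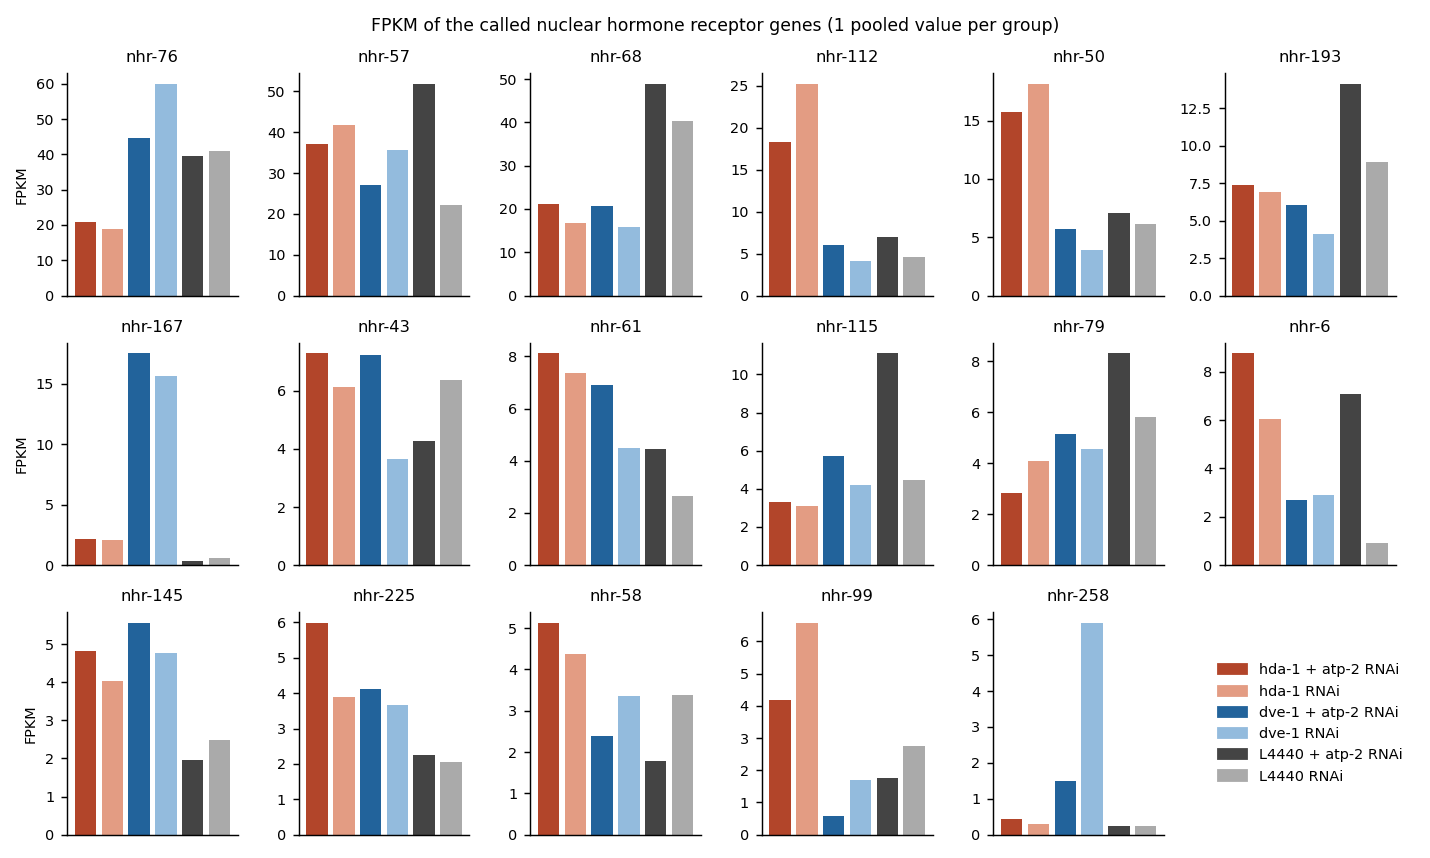
FPKM of the 17 receptor genes called in at least 1 of the 7 comparisons or 2 interactions, in order of mean level, with 1 bar per RNAi group from the group labelled hda-1 + atp-2 on the left to L4440 on the right and 1 pooled value per bar. nhr-167 stands at 17.5 and 15.7 FPKM in the dve-1 groups and at 2.13 FPKM or less elsewhere, and nhr-68 is highest in both L4440 groups.

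With dve-1 RNAi, 2 receptor genes were called higher and 1 lower without atp-2 RNAi, against 7.08% and 2.23% of all kept genes, and under median-of-ratios scaling 2 were higher and 4 lower. The additional lower calls were nhr-80, nhr-193 and nhr-232. Over all kept genes the calls were 944 higher and 298 lower, and 757 and 489 under that scaling. With atp-2 RNAi, 2 were called higher and 3 lower, against 4.81% and 2.39%. nhr-167 (chromosome X, 11980206 to 11982085, minus strand) had the largest ratio of any receptor gene in the 7 comparisons. It was at 2.13 and 2.11 FPKM in the groups labelled hda-1 RNAi with and without atp-2 RNAi, 17.5 and 15.7 FPKM with dve-1 RNAi and 0.367 and 0.616 FPKM in L4440. The dve-1 groups were far above the others, with log2 ratios to L4440 of 3.76 with and 3.37 without atp-2 RNAi. The L4440 values rest on only an estimated 7.87 and 11.9 fragments, while those of the dve-1 groups rest on 422 and 325. Of the 5 sperm markers, 4 were called higher in each of these comparisons too. In the groups labelled hda-1 the sperm sums were lower than in L4440, at 1.14 and 3.16 FPKM against 78.3 and 63.7 FPKM, whereas nhr-167 was higher there. The part of the sperm markers in the result for nhr-167 was not tested.

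nhr-258 (chromosome IV, 8044938 to 8047493, plus strand) was at 0.443 and 0.285 FPKM in the groups labelled hda-1 RNAi with and without atp-2 RNAi, 1.505 and 5.90 FPKM with dve-1 RNAi and 0.228 and 0.246 FPKM in L4440. It too was highest with dve-1 RNAi, at a log2 ratio to L4440 of 2.47 without atp-2 RNAi. With atp-2 RNAi it was lower than without it in the dve-1 background, at -1.46, the sole receptor gene called in that comparison (0 higher, 1 lower, against 0.997% and 1.56% of all kept genes). Its difference from the ratio in L4440 was -1.44. These calls depended on the level limit, since its highest value was 5.90 FPKM. nhr-258 also met the limit on the mean only through its dve-1 values, the group where it is high, so that it had to differ to be counted, and its higher call adds nothing to the count for dve-1.

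A few weak receptor genes differed by over 2-fold between backgrounds below the limit of 5 FPKM, and they were chosen after their values were seen. Of those, nhr-283 met the limit on the mean only through the dve-1 groups and nhr-214 only through the groups labelled hda-1. nhr-277 met it only through the groups labelled hda-1 or dve-1. nhr-74 was at 4.32 and 4.10 FPKM in the groups labelled hda-1 RNAi with and without atp-2 RNAi, 0.229 and 0.126 FPKM with dve-1 RNAi and 4.09 and 3.35 FPKM in L4440. It was thus near 0 in both dve-1 groups only, with log2 ratios of -2.05 and -1.95. nhr-283 was at 0.508 and 0.122 FPKM in the groups labelled hda-1 RNAi with and without atp-2 RNAi and 2.74 and 4.78 FPKM with dve-1 RNAi, and was listed at 0 in both L4440 groups. nhr-214 was at 3.15 and 2.82 FPKM in the groups labelled hda-1 RNAi with and without atp-2 RNAi and 0.241 and 0.253 FPKM with dve-1 RNAi, and was also listed at 0 in both L4440 groups. nhr-277 was at 2.52 and 2.32 FPKM, 1.47 and 2.29 FPKM and 0.130 and 0.136 FPKM in the same groups. With values that low in L4440 it could only be counted by being higher elsewhere, so its order adds nothing.

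In the groups labelled hda-1 RNAi, 5 receptor genes were called higher and 2 lower without atp-2 RNAi, against 8.77% and 3.25% of all kept genes, and 4 and 4 under median-of-ratios scaling, where nhr-8 and nhr-132 joined nhr-68 and nhr-76. With atp-2 RNAi, 4 were called higher and 3 lower, against 8.43% and 4.34%, and 1 and 6 under that scaling, so the balance of directions depends on it. Over all kept genes the calls were 1169 higher and 434 lower without atp-2 RNAi, and 961 and 595 under that scaling, and with atp-2 RNAi 1124 and 579, and 873 and 726. nhr-112 (chromosome V, 16722061 to 16723844, minus strand) had the highest log2 ratio of the called genes, at 1.28 with atp-2 RNAi and 2.22 without it. nhr-112 was at 18.4 and 25.2 FPKM in the groups labelled hda-1 RNAi with and without atp-2 RNAi, 6.07 and 4.11 FPKM with dve-1 RNAi and 6.98 and 4.62 FPKM in L4440. That is 2.63-fold and 5.46-fold higher in FPKM in the groups labelled hda-1 than in L4440. Without the pseudocount, weaker called genes rose further. With atp-2 RNAi these were nhr-58 at 2.89-fold and nhr-225 at 2.66-fold, and without it nhr-6 at 6.58-fold. The ratio of nhr-112 itself passed the limit in both comparisons. nhr-112 was called under both scalings in both comparisons. The 5 neuronal markers, none of them called, had median log2 ratios of 0.92 and 0.65 in the same comparisons, and their part in these values was not tested.

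nhr-50 (chromosome V, 15997726 to 16000631, minus strand) was at 15.8 and 18.2 FPKM in the groups labelled hda-1 RNAi with and without atp-2 RNAi, 5.71 and 3.94 FPKM with dve-1 RNAi and 7.06 and 6.11 FPKM in L4440. Its log2 ratios to L4440 were 1.06 and 1.43, and the first was 0.89 under median-of-ratios scaling. Its neighbour nhr-63 (16002588 to 16004735, plus strand), named here after its values were seen, was at 8.01 and 7.83 FPKM, 2.17 and 1.93 FPKM and 4.63 and 3.70 FPKM in the same groups. Both genes of the pair were highest in the groups labelled hda-1 and lowest with dve-1 RNAi, and nhr-63 was not called.

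The other calls in these groups rest on lower levels. nhr-61 was at 8.12 and 7.35 FPKM in the groups labelled hda-1 RNAi with and without atp-2 RNAi, 6.91 and 4.47 FPKM with dve-1 RNAi and 4.45 and 2.64 FPKM in L4440, and was called higher without atp-2 RNAi, at 1.20. nhr-99 was at 4.19 and 6.58 FPKM, 0.578 and 1.71 FPKM and 1.75 and 2.74 FPKM in the same groups, and its call without atp-2 RNAi, at 1.02, was lost under both scalings, at 0.84 and 0.91. It was lower with atp-2 RNAi in all 3 backgrounds, by between 0.44 and 0.78 log2 units.

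nhr-58 and nhr-225 were called higher in the group labelled hda-1 with atp-2 RNAi, and both calls were lost under median-of-ratios scaling. nhr-58 was at 5.13 and 4.37 FPKM in the groups labelled hda-1 RNAi with and without atp-2 RNAi, 2.39 and 3.35 FPKM with dve-1 RNAi and 1.78 and 3.37 FPKM in L4440. nhr-225 was at 5.99 and 3.89 FPKM, 4.12 and 3.65 FPKM and 2.25 and 2.06 FPKM in the same groups. nhr-79, called lower in the same comparison at -1.28, was at 2.83 and 4.08 FPKM, 5.16 and 4.57 FPKM and 8.31 and 5.80 FPKM, so that the group labelled hda-1 with atp-2 RNAi was the lowest and L4440 with atp-2 RNAi the highest.

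With dve-1 and atp-2 RNAi the further calls were nhr-193, nhr-145 and nhr-6. nhr-193 was at 7.40 and 6.92 FPKM in the groups labelled hda-1 RNAi with and without atp-2 RNAi, 6.06 and 4.10 FPKM with dve-1 RNAi and 14.1 and 8.93 FPKM in L4440, called lower at -1.10. Like nhr-68 and nhr-8, it was below both L4440 groups in the 4 other groups. nhr-145 was at 4.84 and 4.04 FPKM, 5.56 and 4.77 FPKM and 1.97 and 2.47 FPKM in the same groups, called higher with dve-1 and atp-2 RNAi at 1.14, and above both L4440 groups in the 4 others.

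The hda-1 ratios without and with atp-2 RNAi share no group, and over the 171 receptor genes they correlated at r = 0.77, against 0.81 over all kept genes. For dve-1 the correlation was 0.74, against 0.68. The sign was the same for 79.5% of receptor genes with hda-1 and 71.9% with dve-1, against 82.8% and 76.8% of all kept genes, so the receptor genes did not stand above the table on that measure. These are descriptions across genes that share libraries within a ratio and are not independent replicates. The receptor genes called in both in the same direction were nhr-50, nhr-68 and nhr-112 for hda-1, and nhr-68 and nhr-167 for dve-1.

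The response to atp-2 RNAi was less alike between backgrounds. By the values given above, the loss of atp-2 mRNA itself was largest in dve-1 and smallest in the groups labelled hda-1. Its part in the differences between backgrounds, the interactions included, was not tested. The correlation across receptor genes was 0.36 between the groups labelled hda-1 and L4440, 0.31 between dve-1 and L4440 and 0.29 between hda-1 and dve-1, against 0.15, 0.21 and 0.14 over all kept genes. The share of genes with the same sign ran the other way, at 60.2%, 61.99% and 58.5% of receptor genes in these pairs, against 64.6%, 63.9% and 64.8% of all kept genes. No receptor gene was called with atp-2 RNAi in the groups labelled hda-1 (0 higher and 0 lower, against 0.742% and 0.645% of all kept genes). In that comparison 162 of 171 (94.7%) lay within 0.5 log2 units of 0, against 89.5% of all kept genes. Over all kept genes the calls there were 99 higher and 86 lower, while 80 of the 199 made under median-of-ratios scaling were higher. In all 3 backgrounds 43 receptor genes (25.1%) were above 0 and 26 (15.2%) below 0 with atp-2 RNAi, against 33.0% and 12.7% of all kept genes. nhr-3 had the highest atp-2 ratio in the groups labelled hda-1 among receptor genes at 5 FPKM or more. It was at 30.8 and 19.6 FPKM in the groups labelled hda-1 RNAi with and without atp-2 RNAi, 29.0 and 22.01 FPKM with dve-1 RNAi and 28.4 and 13.9 FPKM in L4440. Each group with atp-2 RNAi was thus above each group without it, and at 0.98 in L4440 it just missed the limit.

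**Figure D4:**
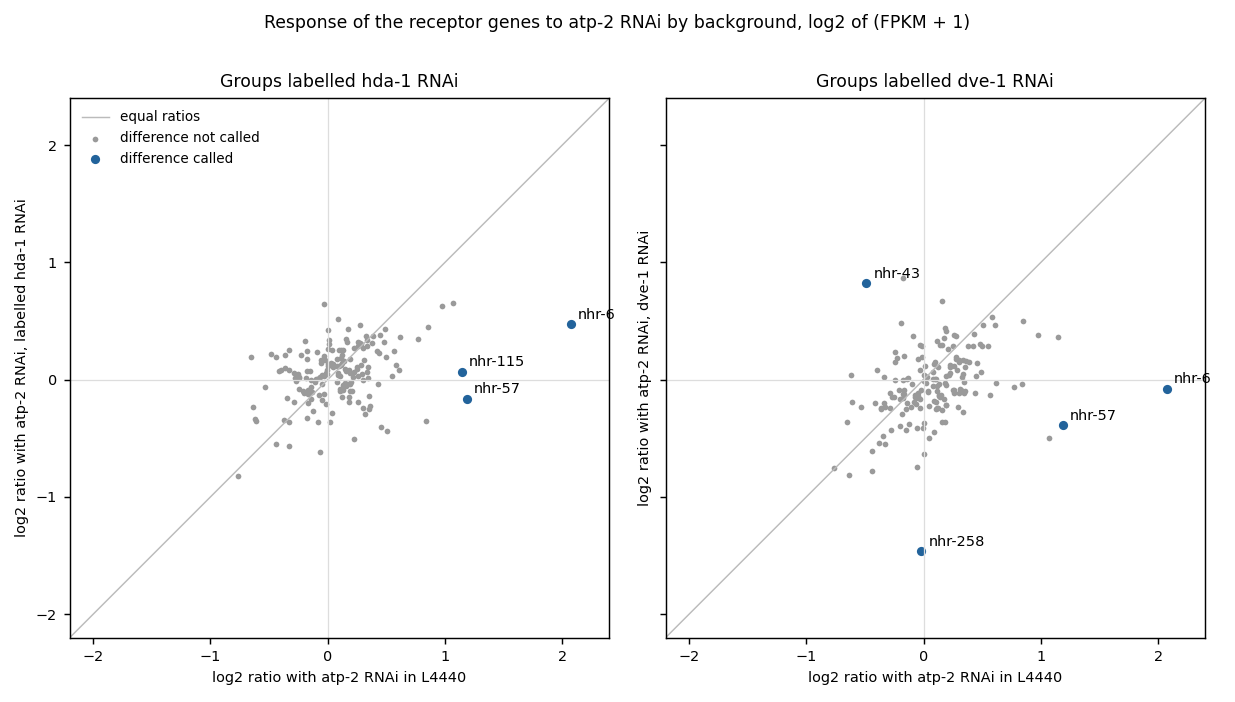
Log2 ratio of (FPKM + 1) with atp-2 RNAi for the 171 receptor genes in L4440 (horizontal) against the groups labelled hda-1 (left) or dve-1 (right), with called differences in blue and named and a line where both ratios are equal. nhr-57 lies at 1.19 in L4440 and below 0 in both other backgrounds, and nhr-6 at 2.07 in L4440 and between -0.08 and 0.47 in the others.

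For the hda-1 by atp-2 interaction, 0 receptor genes were called higher and 3 lower, against 1.2% and 2.35% of all kept genes. These were nhr-6, nhr-57 and nhr-115, the same 3 genes as those with a higher call in L4440 alone. They share those L4440 values with the interaction, so a high ratio in L4440 favours a negative difference. For the dve-1 by atp-2 interaction, 1 was called higher and 3 lower, against 1.14% and 2.77%. The lower ones were nhr-6, nhr-57 and nhr-258. The higher one was nhr-43, at 7.30 and 6.14 FPKM in the groups labelled hda-1 RNAi with and without atp-2 RNAi, 7.25 and 3.67 FPKM with dve-1 RNAi and 4.26 and 6.38 FPKM in L4440. Its log2 ratio with atp-2 RNAi was 0.82 in dve-1 and -0.49 in L4440, with neither called alone.

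The receptor genes share a position that the choice by name did not use. Of the 170 that matched the Ensembl annotation of the same assembly, 104 (61.2%) lie on chromosome V, as do 174 (61.7%) of the 282 matched nhr genes of any level, against 19.8% of all kept genes. Chromosome I holds 25 nhr genes of which 7 met the limit on the mean, a share of 28.0%, whereas 59.8% of those on V and 76.5% of those on IV did. Receptor genes on V were weaker, with a median of 4.90 FPKM against 9.52 FPKM on the other chromosomes, while the median range over the groups was 0.63 log2 units on V and 0.63 elsewhere. Of the called genes, interactions included, 11 lie on V and 6 elsewhere, among 104 and 66 receptor genes, which is not matched for level. Of all kept genes, 22.7% were called in at least 1 of the 7 comparisons, interactions left out. By annotation 166 of the receptor genes are protein-coding and 4 are pseudogenes, and 7 share over 10% of their exon bases with another gene, among them nhr-101 with 69.2%.

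**Figure D5:**
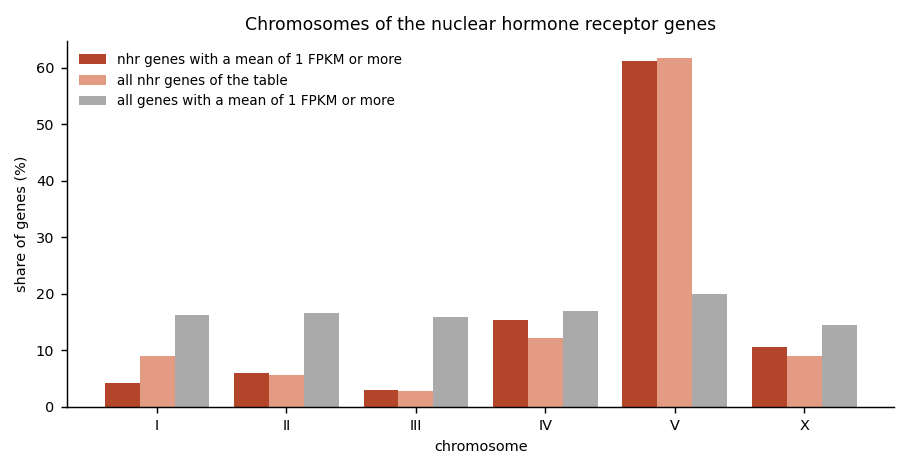
Share (%) of the receptor genes with a mean of 1 FPKM or more, of all nhr genes in the table and of all kept genes on each chromosome. Chromosome V holds 61.2% of the first and 61.7% of the second, against 19.8% of all kept genes.

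Many receptor genes are direct neighbours. There were 45 runs of 2 or more adjacent nhr genes with 139 genes in all, and 83 of the 171 receptor genes stood in such a run, 69 of them on V. The longest run held 8 genes, nhr-186 to nhr-124 on V, and none of them met the limit on the mean, whereas all 7 genes of the run from nhr-56 to nhr-96 and all 7 of that from nhr-161 to nhr-42 did. Called genes were 6 of the 83 in runs and 11 of the 88 outside them. Neighbours did not always move alike. In the run of nhr-228, nhr-227, nhr-225, nhr-115 and nhr-226 on V, nhr-225 was called higher and nhr-115 lower in the group labelled hda-1 with atp-2 RNAi, and nhr-226 was at 3.92 and 3.93 FPKM in the groups labelled hda-1 with and without atp-2 RNAi against 4.77 and 3.68 FPKM in L4440.

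In another run on V, from nhr-179 to nhr-238 and picked after its values were seen, 4 of 5 neighbours on the minus strand were lower with atp-2 RNAi in each background. nhr-117 was at 10.02, 5.87 and 6.05 FPKM with atp-2 RNAi in the groups labelled hda-1, dve-1 and L4440, against 11.9, 11.1 and 9.98 FPKM without it. nhr-237 was at 1.34, 1.95 and 1.52 FPKM with atp-2 RNAi in the same backgrounds, against 3.14, 3.98 and 3.28 FPKM without it. nhr-110 and nhr-238 had log2 ratios between -0.61 and -0.19 in the 3 backgrounds. nhr-179, the fifth, went the other way, with ratios between 0.16 and 0.67, and none of the 5 was called.

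Of 5 nuclear receptor genes that bear other names, daf-12 and sex-1 reached the same mean. sex-1, a receptor that acts as an X-linked signal in sex determination, was at 6.596 and 5.55 FPKM in the groups labelled hda-1 RNAi with and without atp-2 RNAi, 1.39 and 1.39 FPKM with dve-1 RNAi and 0.940 and 1.06 FPKM in L4440. It was called higher in both comparisons labelled hda-1, at 1.97 and 1.67. daf-12, the dafachronic acid receptor of dauer formation and lifespan, was at 10.3 and 10.04 FPKM in the groups labelled hda-1 RNAi with and without atp-2 RNAi, 14.4 and 16.3 FPKM with dve-1 RNAi and 12.7 and 13.1 FPKM in L4440, and was not called. Among the 4 kept genes of dafachronic acid synthesis, dhs-16 was called higher in the group labelled hda-1 without atp-2 RNAi, at 6.93 FPKM against 0 listed in L4440, and emb-8, a cytochrome P450 reductase, was called lower with atp-2 RNAi, at 96.5 FPKM against 204 FPKM in L4440.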

How the data were processed

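mRNA of whole worms was sequenced from 12 libraries in 6 groups on a HiSeq2500. Reads were aligned by the authors to ce11 (TopHat2 2.1.1). From those that mapped uniquely, the authors computed FPKM with Cufflinks and deposited 1 value per gene and group with both libraries combined. No count, confidence bound or value per library was used, and strandedness is not stated. The study states in general that quantitative experiments were repeated independently, without naming these libraries.

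FPKM were used as deposited. Genes with a mean of 1 FPKM or more were kept, a pseudocount of 1 FPKM was added, and a gene was called at 2-fold with 5 FPKM in the higher group. For an interaction, the atp-2 log2 ratio of L4440 was subtracted from that of the other background, and it was called at a difference of 1 with 5 FPKM in the highest of its groups. Fragments per group were estimated from the spacing of low FPKM among genes whose exons span 1000 to 1500 nt, and cover counting error only. Positions come from Ensembl release 115 of the same assembly, matched by identifier (45990 genes). Python 3.11.15, pandas 2.3.3 and numpy 2.4.6 were used. The calling steps were also run on simulated data with counting error only, with changes planted in genes at a mean of 10 FPKM or more. That run had no variation between libraries and did not cover weaker genes, while 46 of 171 receptor genes had such a mean. It thus says nothing on whether the calls made here would repeat.

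Named were every called receptor gene, the 10 with the highest mean, the 3 that moved most each way in a comparison, the members of the role lists, and called members of the pathway lists, not all of them described. The receptor genes and lists were chosen with earlier results of these data known. Alternatives were other pseudocounts, scalings, level limits and no filter on the mean.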

Additional observations from a re-analysis of the deposited data

Results flagged for a closer look

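For 3 receptor genes the response to atp-2 RNAi had opposite signs in L4440 and in another background, with a difference past the limit. Each group has 1 pooled value, so these differences were not tested. nhr-57 had a log2 ratio of -0.16 with atp-2 RNAi in the groups labelled hda-1 against 1.19 in L4440, a difference of -1.35. In dve-1 its ratio was -0.39, a difference of -1.57 from the same L4440 value. nhr-43 had a ratio of 0.82 in dve-1 against -0.49 in L4440, a difference of 1.31. nhr-6 had a ratio of -0.08 in dve-1 against 2.07 in L4440, a difference of -2.15, where the L4440 group without atp-2 RNAi rests on an estimated 37.5 fragments. The dve-1 ratio of nhr-6 comes from 2.71 FPKM with and 2.91 FPKM without atp-2 RNAi, too small a shift for its sign to be read.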

How the results depend on the processing

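Of 33 called pairs of a receptor gene and a comparison, 11 were called under every alternative run for them and no ratio changed sign. Over 247 combinations of such a pair and an alternative, 40 lost the call. Of these, 19 were with a pseudocount of 5 FPKM, 15 with a limit of 10 FPKM, 4 with median-of-ratios and 2 with upper-quartile scaling.

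Receptor genes called without atp-2 RNAi in the groups labelled hda-1 numbered 11 with a pseudocount of 0.1 FPKM, 3 with 5 FPKM, 15 with a limit of 2 FPKM and 4 with 10 FPKM, against 7 as reported. Over all kept genes 1169 were called higher and 434 lower as reported. Under these settings they were 1300 and 460, 741 and 347, 1716 and 592, and 768 and 336, so the whole table moved too. With atp-2 RNAi the receptor genes called numbered 1 with a pseudocount of 5 FPKM, 13 with a limit of 2 FPKM and 4 with 10 FPKM, against 7. All kept genes had 1124 higher and 579 lower as reported, and 677 and 456, 1655 and 776, and 728 and 433 under these settings. At 2 FPKM both counts include nhr-214, nhr-235 and nhr-277, which met the limit on the mean only through groups where they are high. For dve-1 without atp-2 RNAi the receptor genes called numbered 5 with a pseudocount of 0.1 FPKM, 6 under either scaling and 8 with a limit of 2 FPKM, against 3. All kept genes had 944 higher and 298 lower as reported. They had 1038 and 338 with that pseudocount, 757 and 489 or 770 and 447 under the scalings, and 1325 and 345 with that limit. For dve-1 with atp-2 RNAi the receptor genes called numbered 2 with a pseudocount of 5 FPKM, 9 with a limit of 2 FPKM and 3 with 10 FPKM, against 5. All kept genes had 641 higher and 319 lower as reported, and 403 and 205, 871 and 376, and 452 and 234 under these settings. The hda-1 interaction gave 6 receptor genes with a pseudocount of 0.1 FPKM and 1 with 5 FPKM, against 3, and the dve-1 interaction 2 with a pseudocount of 5 FPKM and 1 with a limit of 10 FPKM, against 4. All kept genes had 160 higher and 314 lower in the first as reported, and 240 and 437, and 101 and 189 under its settings. In the second they had 152 and 370 as reported, and 107 and 223, and 110 and 238 under its settings. atp-2 RNAi in dve-1 gave 0 receptor genes with a pseudocount of 5 FPKM or a limit of 10 FPKM, against 1. All kept genes there had 133 higher and 208 lower as reported, and 89 and 129, and 94 and 131 under these settings. Higher pseudocounts and limits remove weak genes by construction. Taking the mean over the 4 groups not labelled hda-1, chosen after seeing the data, left 167 receptor genes. It was run for the dve-1 comparisons, the dve-1 interaction and atp-2 RNAi in dve-1 and L4440, where each call was unchanged, and not for any comparison labelled hda-1. nhr-258 met the limit on the mean only through its dve-1 values.

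No paired analysis was possible because each group has 1 pooled value and no value per library. Leaving out 1 library at a time was not run for the same reason. Depth limits the weakest values, such as nhr-167 in L4440.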
